A study of Mus musculus with 2 samples.

Results

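The replication-dependent histone genes are the genes whose symbol marks them as a numbered H1f1 to H1f5, H2ac, H2bc, H3c or H4c gene, or carries an older Hist1 to Hist4 name, with pseudogenes so named left out. This rule took 60 of the 18987 genes in the count table: 5 of linker histone H1, 18 of H2A, 15 of H2B, 11 of H3 and 11 of H4. The study sequenced RNA from RAW264.7 cells, a mouse macrophage-like line that matures into osteoclasts under the cytokine RANKL, and asked how knockdown of Cpeb4 alters gene expression under RANKL. One culture carried a control shRNA and the other an shRNA against Cpeb4. Both were seeded at 7500 cells per cm2, both received RANKL at 100 ng/ml after 24 h, and the series title places the sampling on day 3. The labels do not say whether the shRNA cells were 1 clone or a pool, nor name separate cultures, and there was 1 library per group. No difference below therefore has a replicate check, and none was tested. Ratios are given as log2 of the Cpeb4 shRNA level over the control level. Intervals in parentheses are their exact 95% Clopper-Pearson counting intervals, and they cover counting error only.

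Replication-dependent histone genes supply the histones that package newly made DNA, and their mRNAs are most abundant in S phase. Most of these genes lack introns and lie in clusters, and their typical mRNA ends just after a conserved stem-loop in place of a poly(A) tail. The stem-loop-binding protein SLBP and the U7 small nuclear ribonucleoprotein direct that cleavage. Cells that leave the cycle or differentiate are known to make, from some of these genes, longer polyadenylated transcripts that run past the stem-loop.

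The annotated transcripts carried this element. In the part after the stop codon, a 16-base stem-loop (GG start, 6 paired bases on each side, a 4-base loop beginning with T) was found in 40 of the 58 protein-coding members. For each gene the transcript with such an element was preferred where the annotation held several. The stem-loop began 21 to 58 bases past the stop codon, with a median of 31.5. One form, shared by H1, H2A, H2B and H3 genes, accounted for 23 of the 40 genes, whereas all 10 stem-loops of H4 genes had a different stem. The sequences below are shown for the most counted member with a stem-loop in each class, for H4c8, which had the lowest ratio of the H4 genes, and for H3c8, which was at least 2-fold higher, 5′ to 3′ on the gene's strand, with the stem-loop in capitals. They come from GENCODE M21 transcripts on GRCm38, the assembly called mm10, and each lies in an exon past the stop codon.

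H1f2, chr13:23739512-23739527, plus strand: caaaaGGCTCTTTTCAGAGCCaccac

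H2ac18, chr3:96246032-96246047, plus strand: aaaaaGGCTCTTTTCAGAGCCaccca

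H2bc8, chr13:23571843-23571858, plus strand: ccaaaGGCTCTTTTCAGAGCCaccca

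H3c14, chr3:96247327-96247342, plus strand: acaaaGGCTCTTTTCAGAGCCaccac

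H3c8, chr13:23535889-23535904, plus strand: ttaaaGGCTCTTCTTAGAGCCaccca

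H4c9, chr13:22040966-22040981, minus strand: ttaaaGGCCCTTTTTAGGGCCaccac

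H4c8, chr13:23531458-23531473, plus strand: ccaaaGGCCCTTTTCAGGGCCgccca

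The printed H1f2, H2ac18, H2bc8 and H3c14 elements are letter for letter the same over the 16 bases and differ only in the flanks. The loop of H3c8 differs from theirs, and the form it shows was found in 1 member. Among all protein-coding genes with at least 100 annotated bases past the stop codon, the element was in the first 100 of those bases in 45 of 20167 (0.223%). It was there in 22 of the 27 members with that much annotation (81.5%) and in 23 of 20140 other genes (0.114%).

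Histone counts were lower in the Cpeb4 shRNA library. The 60 genes together had 46131 counts in the control and 15722 with the Cpeb4 shRNA, although the second library was the deeper, with 119350322 counts against 79399680. In CPM, which are counts relative to library size after TMM (trimmed mean of M values) scaling, this was 630 against 122, a log2 ratio of -2.37 (-2.40 to -2.35), or 5.18-fold lower. As a share of all counts the histone genes took 0.058% and 0.013%. In RNA from whole cultures, fewer cells that make histone RNA and less histone RNA per cell cannot be told apart.

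Gene by gene, 47 of the 60 members were at least 2-fold lower, 2 were at least 2-fold higher (H1f1 and H3c8) and 11 were within 2-fold. Over all 18987 genes, 15.4% were at least 2-fold lower and 16.9% at least 2-fold higher. A log2 ratio below 0 was found for 57 members under TMM scaling (56 under total-count and 58 under reference-gene scaling), and for 49.5% of all genes. The members' median was -2.06. The counting interval lay wholly below 0 for 48 members, included 0 for 10 and lay above 0 for 2, and for 32 it lay wholly past 2-fold lower. Many members were sparsely counted, with 24 of 60 under 50 counts in both libraries.

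A mean level of 1 CPM or more across the 2 libraries was used as a filter, and 26 members passed it, many of them through the control library alone, while 34 did not. Of those 26, 25 were at least 2-fold lower and H2ac8 was within 2-fold, where the shares over the 12086 genes past the filter were 11.8% for lower and 14.6% for higher. Because a gene high in 1 library alone can pass such a filter, this count is given as a description. The split over all genes past the filter was 1765 higher and 1421 lower under TMM scaling, 2510 and 1027 under total-count scaling, and 998 and 2606 under scaling to reference genes. Total-count scaling moves every log2 ratio up by 0.23, and reference-gene scaling moves every one down by 0.41. The latter uses the median of 20 reference genes that were not uniform themselves. Under TMM scaling they ran from -1.96 to 1.93, with 1 at least 2-fold lower and 2 at least 2-fold higher.

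**Figure D1:**
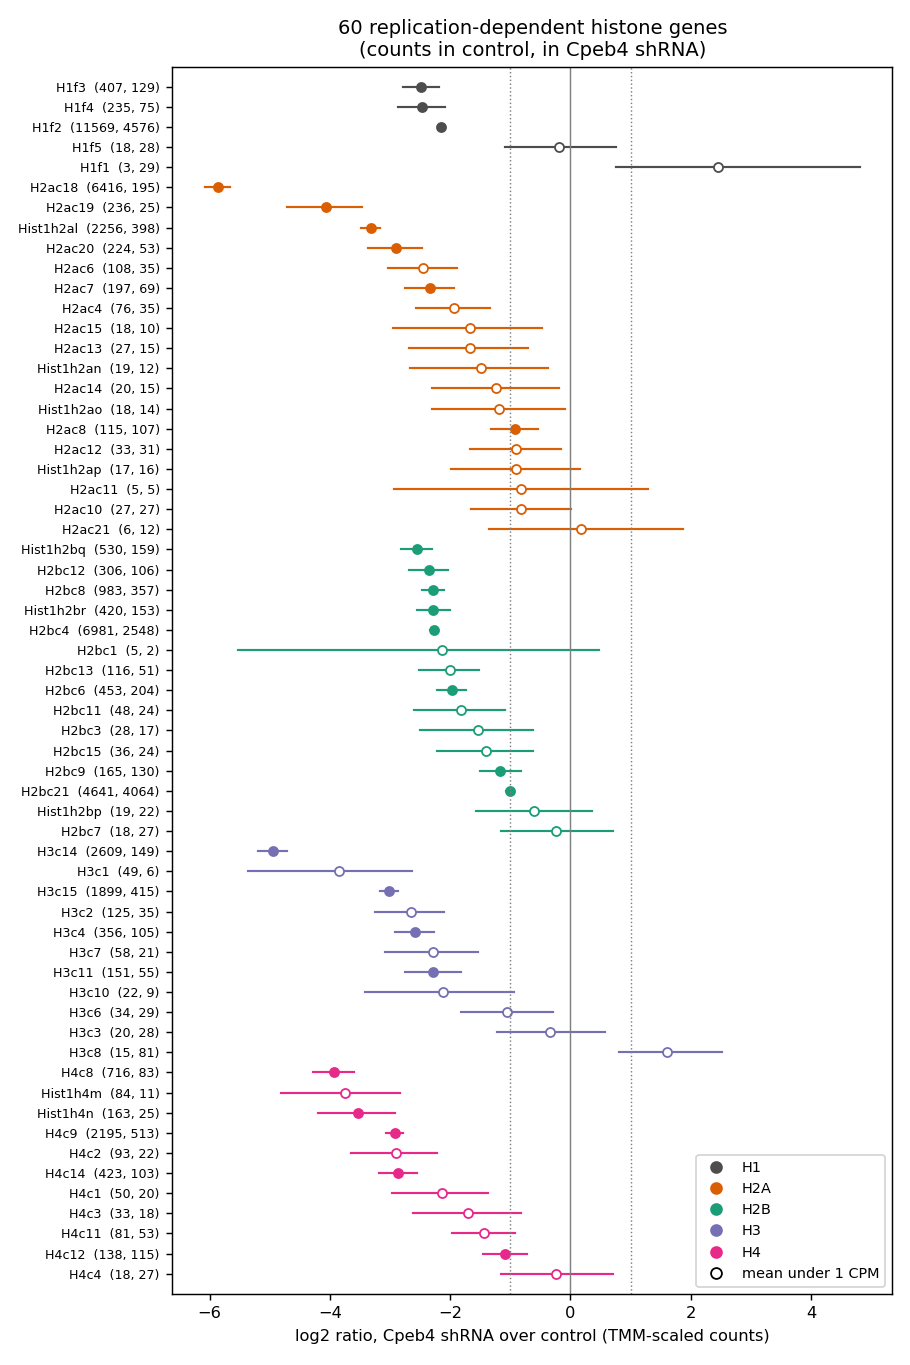
Log2 ratio, Cpeb4 shRNA over control (x axis, TMM-scaled counts) for each of the 60 histone genes (y axis, with the control count and then the Cpeb4 shRNA count in parentheses), coloured by class. Bars are 95% counting intervals, open points have a mean under 1 CPM, and dotted lines mark 2-fold. Of the 60 points 57 lie left of 0, H2ac18 is farthest left at -5.86, and H1f1 and H3c8 are the points right of the upper 2-fold line.

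The linker histone H1 binds DNA at the entry and exit of the nucleosome. The H1 genes together went from 12232 to 4837 counts, a log2 ratio of -2.16 (-2.21 to -2.11). H1f2 (ENSMUSG00000036181, chr13:23738808-23740367) alone had 11569 counts in the control and 4576 in the Cpeb4 shRNA library, or 158 and 35.4 CPM. It was the most counted member in both libraries, and its log2 ratio was -2.16 (-2.21 to -2.11). H1f3 had 407 and 129 counts (-2.48) and H1f4 had 235 and 75 (-2.47). These 3 genes thus lay close to each other in ratio across a wide range of levels. H1f5 had 18 and 28 counts, a ratio of -0.18 whose interval (-1.09 to 0.76) includes 0, and which turns to 0.05 under total-count scaling. H1f1 had 3 and 29 counts, and its ratio of 2.45 (0.76 to 4.81) was the highest of the 60, from a level at the limit of what these libraries resolve: 3 counts equal 0.041 CPM in the first library and 0.023 in the second.

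H2A genes had the lowest summed ratio of the 5 classes, and 1 gene, H2ac18, weighed most in it. H2A pairs with H2B in the dimers that flank the H3 and H4 core of the nucleosome. The 18 H2A genes together had 9818 counts in the control and 1074 in the Cpeb4 shRNA library, a log2 ratio of -4.01 (-4.11 to -3.92). Without H2ac18 the ratio was -2.77, so that a 16.2-fold difference became 6.84-fold. H2ac18 (ENSMUSG00000064220, chr3:96245497-96246082, a single-exon gene) had 6416 and 195 counts, or 87.6 and 1.51 CPM. Its log2 ratio was -5.86 (-6.07 to -5.66), the lowest of all 60 members. Per kb of exon it was the highest histone gene of the control library, at 149 CPM per kb, and the ninth of the Cpeb4 shRNA library, at 2.57. Its share of all histone counts went from 13.9% to 1.24%.

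The other counted H2A genes were lower as well. H2ac19, whose coding sequence is identical to that of H2ac18, had 236 and 25 counts (-4.06), so the division of reads between this pair is uncertain. The pair together stood at -5.74. Hist1h2al, annotated as a processed pseudogene at chr13:51202727-51203065 and outside the clusters, had 2256 and 398 counts (-3.32). H2ac20 had 224 and 53 counts (-2.90), H2ac7 had 197 and 69 (-2.33), H2ac6 had 108 and 35 (-2.45) and H2ac4 had 76 and 35 (-1.94). H2ac8 differed less, with 115 and 107 counts (-0.93, interval -1.32 to -0.53). The remaining 10 H2A genes had at most 33 counts in either library. Of these, H2ac13, H2ac14, H2ac15, Hist1h2an and Hist1h2ao were at least 2-fold lower, and Hist1h2ap, H2ac10, H2ac11, H2ac12 and H2ac21 were within 2-fold. All 18 H2A genes overlap another annotated gene, and the sources used here do not say whether counting used strand.

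The H2B genes had the highest summed ratio of the 5 classes. Together they went from 14749 to 7888 counts, a log2 ratio of -1.72 (-1.76 to -1.68), or -2.22 without H2bc21. H2bc4 (ENSMUSG00000018102, chr13:23684199-23692908) had 6981 and 2548 counts, or 95.3 and 19.7 CPM (-2.28). H2bc21 (ENSMUSG00000068854, chr3:96221119-96223738) had 4641 and 4064 counts, or 63.4 and 31.4 CPM. Its log2 ratio of -1.01 (-1.07 to -0.95) lies at the 2-fold line, and is -0.78 under total-count scaling. Its share of the histone counts was 10.1% in the control and 25.8% in the Cpeb4 shRNA library, and its rank per kb went from the seventh to the third. Next in counts were H2bc8 with 983 and 357 (-2.28) and Hist1h2bq with 530 and 159 (-2.56). H2bc6 had 453 and 204 (-1.97), Hist1h2br 420 and 153 (-2.28) and H2bc12 306 and 106 (-2.35). The ratios of these 5 genes and of H2bc4 thus ran from -2.56 to -1.97. H2bc9 was nearer to the 2-fold line with 165 and 130 counts (-1.16). H2bc13 had 116 and 51 counts (-2.01), and the 6 others had at most 48 counts in either library. H2bc11 (-1.82), H2bc3 (-1.54) and H2bc15 (-1.41) were past 2-fold among them, and Hist1h2bp (-0.61) and H2bc7 (-0.24) within it. The sixth, H2bc1, known as a testis H2B, had 5 and 2 counts (-2.14, interval -5.54 to 0.47).

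H3 and H4 form the tetramer at the centre of the nucleosome, and genes of both classes were lower. The 11 H3 genes went from 5338 to 933 counts, a log2 ratio of -3.34 (-3.44 to -3.24), or -2.62 without H3c14. H3c14 (ENSMUSG00000093769, chr3:96246685-96248509) had 2609 and 149 counts, or 35.6 and 1.15 CPM, and a log2 ratio of -4.95 (-5.20 to -4.71). H3c15 (ENSMUSG00000081058, chr3:96238108-96239127) had 1899 and 415 counts (-3.02). The coding sequences of H3c14 and H3c15 are identical, and the 2 genes together stood at -3.82. H3c4 had 356 and 105 counts (-2.58), H3c11 had 151 and 55 (-2.28) and H3c2 had 125 and 35 (-2.66). H3c1, with 49 and 6 counts (-3.85), was the next lowest H3 gene after H3c14, though with a wide interval (-5.37 to -2.63). H3c7 had 58 and 21 counts (-2.29) and H3c6 had 34 and 29 (-1.05), while H3c3, with 20 and 28 (-0.34, interval -1.22 to 0.57), was within 2-fold.

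H3c8 (ENSMUSG00000099517, chr13:23535422-23535951) went the other way. It had 15 counts in the control and 81 in the Cpeb4 shRNA library, or 0.20 and 0.63 CPM, a log2 ratio of 1.61 (0.81 to 2.51). It remained at least 2-fold higher under the other scalings, at 1.84 with total counts and 1.21 with reference genes. Its coding sequence is 99.3% identical to that of H3c10, which had 22 and 9 counts (-2.11), so reads could be divided between these and other H3 genes. All 11 H3 genes are at least 97% identical to another H3 gene in coding sequence.

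The 11 H4 genes went from 3994 to 990 counts, a log2 ratio of -2.83 (-2.94 to -2.73). H4c9 (ENSMUSG00000060639, chr13:22040636-22041362) had 2195 and 513 counts, or 30.0 and 3.96 CPM, with a ratio of -2.92. Without it the other H4 genes stood at -2.74. H4c8 had 716 and 83 counts (-3.93), H4c14 had 423 and 103 (-2.86) and H4c2 had 93 and 22 (-2.90). Hist1h4n had 163 and 25 counts (-3.53) and its coding-sequence twin Hist1h4m had 84 and 11 (-3.75). The pair together stood at -3.60. H4c11 had 81 and 53 counts (-1.43), H4c1 had 50 and 20 (-2.14) and H4c3 had 33 and 18 (-1.70). H4c12 lay near the 2-fold line, with 138 and 115 counts (-1.08), and H4c4 within it, with 18 and 27 (-0.24). The H4 genes were thus all below 0 and, H4c12 and H4c4 apart, at -1.43 or lower.

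**Figure D2:**
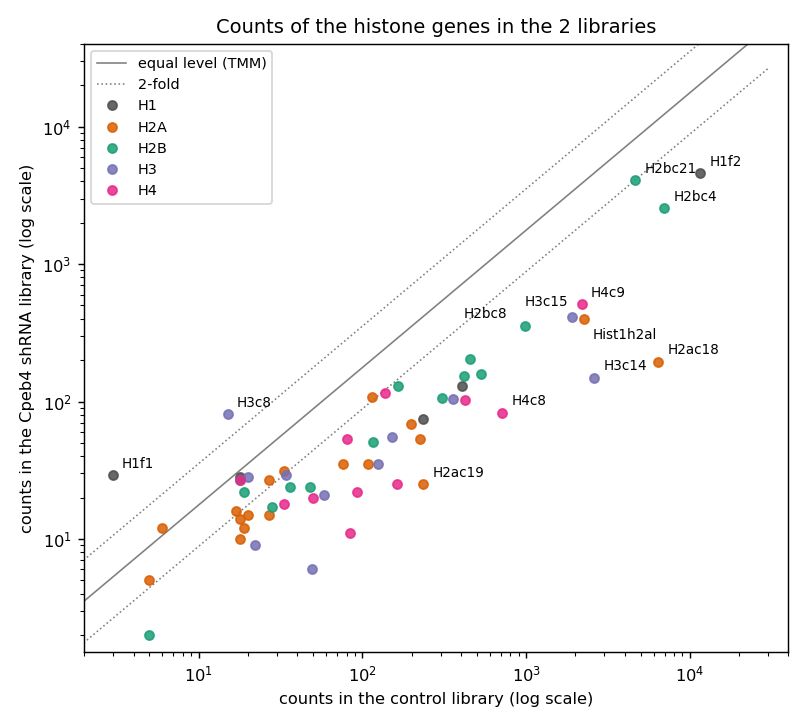
Counts of each histone gene without (x axis, control shRNA, log scale) and with the Cpeb4 shRNA (y axis, log scale), coloured by class. The solid line marks equal level after TMM scaling and the dotted lines 2-fold. H2ac18, at 6416 and 195 counts, and H3c14, at 2609 and 149, lie farthest below the lines among the highly counted genes, while H2bc21, at 4641 and 4064, lies on the lower 2-fold line.

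The order of the histone genes by level per kb of exon differed between the libraries. In the control library it was led by H2ac18 (149 CPM per kb), H1f2 (101), Hist1h2al (90.9), H2bc4 (82.5) and H4c9 (41.2). In the Cpeb4 shRNA library H1f2 (22.7 CPM per kb) and H2bc4 (17.0) led, followed by H2bc21 (12.0), Hist1h2al (9.07) and H4c9 (5.45). Annotated exon length enters these levels, and long annotated ends lower them where reads fall only on a shorter RNA. H1f2 held 25.1% of histone counts in the control and 29.1% in the Cpeb4 shRNA library, and H2bc4 held 15.1% and 16.2%. The 2 genes with the lowest ratios thus lost rank, while H1f2 and H2bc4, whose ratios were near the sum's, kept a similar share.

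The 8 genes of the chromosome 3 cluster (chr3:96219865-96263311) ranged in ratio from -5.86 to 0.18. Together they had 16454 counts in the control and 5016 in the Cpeb4 shRNA library (-2.53). Without H2bc21 the ratio was -4.45, and without H2ac18 and H3c14 it was -1.49. The lowest, H2ac18 and H3c14, are neighbours on the plus strand, and H3c15 and H2ac19, a mirrored copy of that pair, lie at lower coordinates on the minus strand. H2bc21 and H2ac20 are also neighbours, with ratios of -1.01 and -2.90. H2ac21, with 6 and 12 counts (0.18, interval -1.35 to 1.88), was the member of this cluster not below 0, and it was at -0.23 under reference-gene scaling.

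Other annotated genes share this ground. Gm20634 lies on the same strand as H2ac18 and H3c14 and overlaps both, and it had 1879 and 1216 counts (-1.45). Gm20633, on the strand opposite H2ac18, had 938 and 902 counts (-0.88). Gm20632, on the strand opposite H2ac19, had 5826 and 1375 counts (-2.90). With reads possibly divided among these genes, H2ac18, H3c14 and Gm20634 were also summed, giving 10904 and 1560 counts and a ratio of -3.63. The 8 genes together with these 3 models stood at -2.38, so the ratio of the cluster as a whole moved little, whereas the value of H2ac18 alone rests on how reads were assigned.

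**Figure D3:**
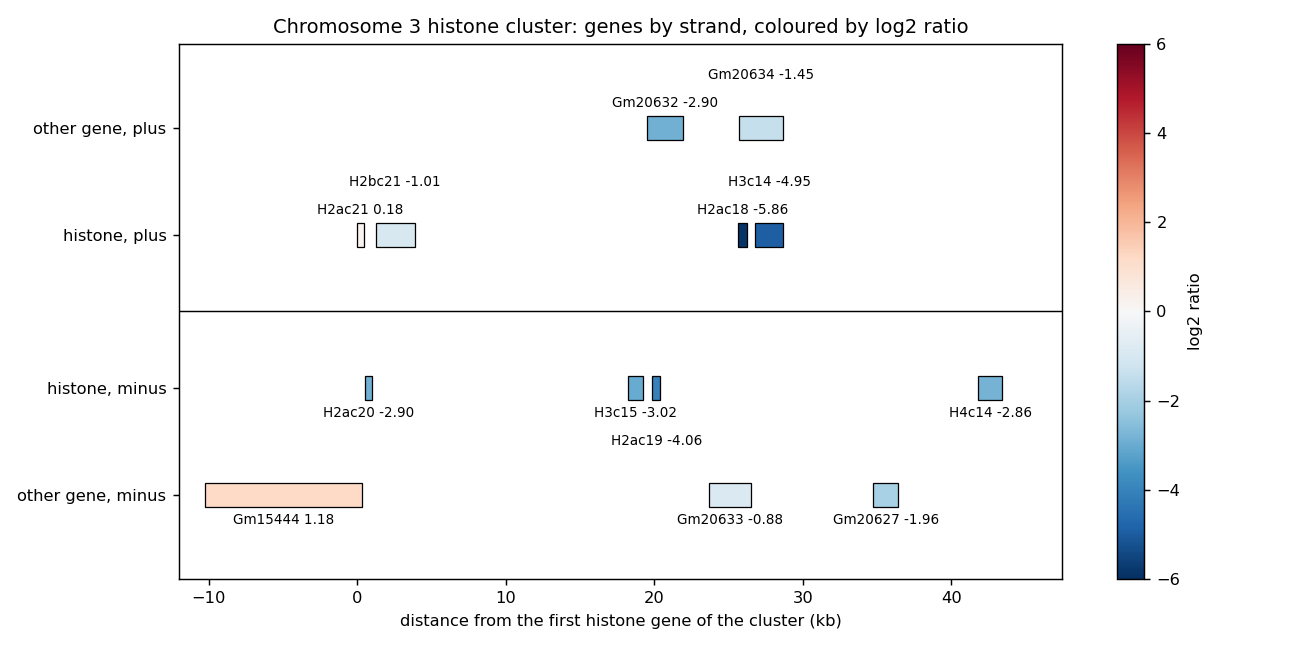
Map of the chromosome 3 histone cluster, with distance in kb from the first histone gene (x axis), histone and other annotated genes on either strand (rows), and the log2 ratio as colour and as the number beside each name. H2ac18 (-5.86), from 25.6 kb, and H3c14 (-4.95), up to 28.6 kb, overlap Gm20634 (-1.45), and H2bc21 (-1.01) lies at 1.25 to 3.87 kb.

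On chromosome 13 the genes fall into a proximal block (chr13:21715763-22043676, 23 genes) and a distal block (chr13:23531050-23934156, 28 genes). The proximal block had 4484 counts in the control and 1466 in the Cpeb4 shRNA library (-2.43). The distal block had 22937 and 8842 (-2.20). The lower level was thus found in both blocks as well as on chromosome 3. Of the 38 members that overlap no other annotated gene, 31 were at least 2-fold lower. Summed without the 22 that overlap another gene, the members stood at -2.03.

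Many H2A and H2B genes lie head to head and share the stretch between their starts. Of these there were 11 pairs, with 175 to 301 bases between the 2 genes. In all 11 pairs both genes had a log2 ratio below 0, under TMM scaling. This is not particular to pairs, since 57 of the 60 members were below 0, beside 49.5% of all genes. The counting intervals of H2bc7, Hist1h2ap, H2ac11 and Hist1h2bp include 0. The values within a pair could be close, as for H2bc4 and H2ac6 (-2.28 and -2.45), or apart, as for H2bc8 and H2ac8 (-2.28 and -0.93), H2bc12 and H2ac12 (-2.35 and -0.91) and H2ac7 and H2bc7 (-2.33 and -0.24). H2ac12 and H2bc7 had at most 33 counts in either library, whereas H2bc8 and H2ac8 both had over 100 in each.

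The promoters of the members were rich in motifs known from histone genes. RefSeq promoters (GRCm38.p6, 250 bases before to 50 after the start) were matched for 52 members and searched on both strands, beside all 32851 promoters of the same length. CCAAT, which the factor NF-Y binds, was in 45 of 52 (86.5%, against 37.4% of all promoters), with 3 of 10 H4 promoters and all of the other classes. TATAAA, the TATA box, was in 32 (61.5%, against 13.6%). AAACACA, part of the H1 box, was in 6 (11.5%, against 7.18%), of which 4 of the 5 H1 promoters. ATTTGCAT, the octamer that Oct1, the product of Pou2f1, binds, was in 10 (19.2%, against 1.74%), 5 of them H2B and 5 H2A. Promoters of head-to-head genes can overlap, and a site in the shared part then counts for both genes. This holds for the octamer of H2bc8 and H2ac8 and for that of H2bc12 and H2ac12. None of the 4 motifs contains another. The octamer stretches of the counted H2B genes are printed here because they lie between head-to-head genes or close to the start, with the octamer in capitals.

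H2bc8 (chromosome 13, plus strand), 59 bases before its start, and H2ac8 on the opposite strand: ttgagtcccttATTTGCATagaacctctat

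H2bc12 (chromosome 13, plus strand), 30 bases before its start, and H2ac12 on the opposite strand: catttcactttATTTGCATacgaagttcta

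H2bc6 (chromosome 13, minus strand), 67 bases before its start: agtaagacttaATTTGCATaagactgccta

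The first 2 stretches each serve as promoter sequence of both genes of a pair, which had ratios of -2.28 and -0.93 and of -2.35 and -0.91, and H2bc6 was at -1.97. For H2bc6 the octamer was in the promoter at chr13:23585921-23586220, whose start is meant above. Its other matched promoter, at chr13:23621045-23621344, had none. A match of letters is a description and not a measured binding site.

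Most histone counts fell on genes with long annotated ends. In 23 protein-coding members the annotated transcript runs on, over 100 bases past the stem-loop or, where none was found, past the stop codon. These 23 genes held 74.5% of the histone counts in the control and 89.0% in the Cpeb4 shRNA library. Such shares are not divided by exon length, and a longer annotated exon can collect more reads. Per kb in the control library the 23 ran from 0.216 CPM (H4c4) to 101 (H1f2). The other coding members ran from 0.0553 (H1f1) to 149 (H2ac18), so the ranges overlapped. Of the 10 members highest per kb in the control, H1f2, H2bc4, H4c9, H3c15, H2bc21, H2bc8 and H3c14 were long-ended. H2ac18 and H4c8 were not, and Hist1h2al is annotated as a pseudogene. A poly(A) signal (AATAAA or ATTAAA) was in the last 50 annotated bases of 10 of the 23, and in 1 of the 35 other coding members. Among them, H1f2 runs on for 840 bases past its stem-loop, and H3c14 for 1167. The 19 that hold a stem-loop and run on had 21791 and 7066 counts (-2.45). The 4 long-ended genes in which no stem-loop was found, H2bc4, H2bc21, Hist1h2bq and Hist1h2br, had 12572 and 6924 (-1.68).

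Genes annotated to end near the stem-loop were fewer in counts. The 21 with a stem-loop and at most 100 bases after it had 8873 counts in the control and 899 in the Cpeb4 shRNA library (-4.12). Without H2ac18 they had 2457 and 704 (-2.62, interval -2.75 to -2.50), beside -2.12 (-2.15 to -2.09) for the 23 long-ended genes together. H2ac18 thus accounted for much of the distance between the summed ratios, though not for all of it. The median over genes was -2.33 for all 21 short-ended genes with a stem-loop, -2.14 without H2ac18, and -2.28 for the 23 long-ended genes. The order of the medians thus turned on whether H2ac18 was included. The 11 annotated to end at the stop codon itself had 556 and 333 counts (-1.56). The 3 with a short end and no stem-loop, H1f1, H2ac10 and H2ac12, had 63 and 87 counts together. The ratio thus followed no single order from short to long ends.

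**Figure D4:**
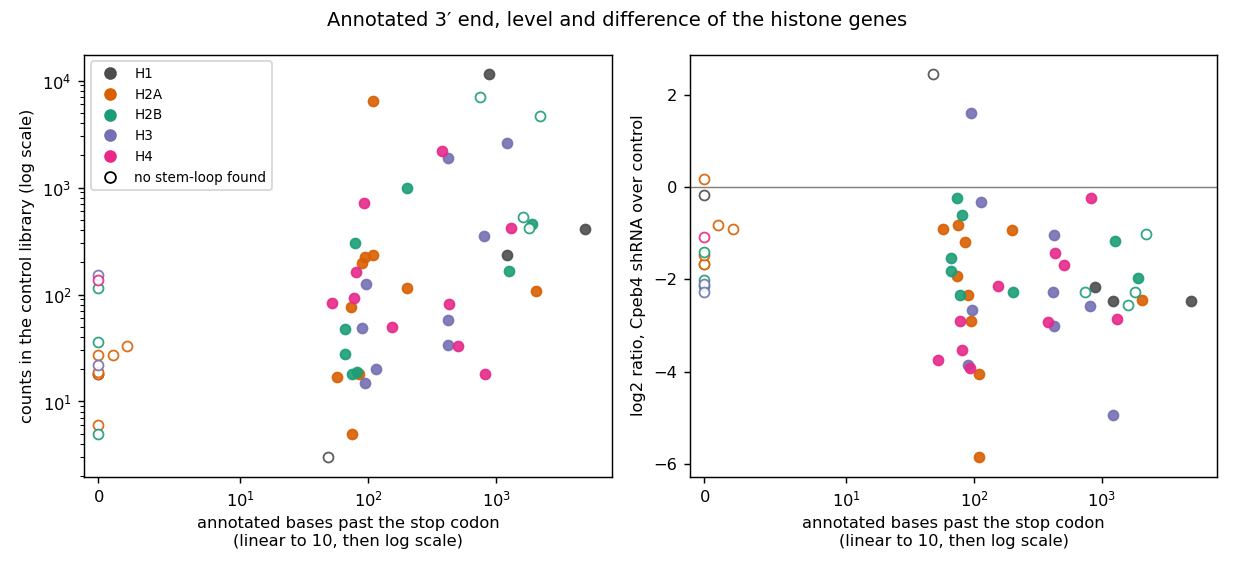
Annotated bases past the stop codon (x axis, linear to 10 and then log scale) against counts in the control library (left, log scale) and against the log2 ratio (right) for the 58 protein-coding histone genes, coloured by class and open where no stem-loop was found. The most counted genes, among them H1f2 and H2bc4, lie towards long ends with H2ac18 as an exception at 109 bases, and genes at every length lie below 0 in the right panel.

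Summed over those listed, other RNAs known to lack a poly(A) tail differed less between the libraries than the histone genes. Of 19 such symbols listed for comparison, those in the table filled 11 rows, Terc a pair of them, with 1544 counts in the control and 2482 in the Cpeb4 shRNA library and a summed log2 ratio of -0.14 (-0.23 to -0.04). Rn7s1 and Rn7s2, the RNA of the signal recognition particle, had 662 and 676 counts in the control and 1001 and 1024 in the Cpeb4 shRNA library, both at -0.22 (0.01 under total-count scaling). Rn7sk, the 7SK RNA, had 129 and 347 (0.61). These 3 rows were those past the filter, and Rn7s1 and Rn7s2 held most of the counts, so the sum mainly describes them. With no filter 1 of the 11 rows was at least 2-fold lower, 1 higher and 9 within 2-fold. Over all genes 15.4% were lower and 16.9% higher. The sources used here do not say how the libraries selected RNA, and its part in the histone result was not tested.

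The genes of S phase went the opposite way to the histone genes. All 48 listed genes of DNA replication and the G1/S transition passed the filter. Of these, 41 were at least 2-fold higher in the Cpeb4 shRNA library, 0 were at least 2-fold lower and 7 lay within 2-fold. Over all genes past the filter 14.6% were higher and 11.8% lower. The median of the list was 2.85, beside 0.05 over all genes past the filter. The highest were Mcm10, a replication initiation factor (95 and 6910 counts, 5.36), Uhrf1, which maintains DNA methylation at replication (480 and 29185, 5.11), and Cdc6, a loader of the replicative helicase (76 and 4060, 4.92). The lowest were Chaf1b, a subunit of the histone chaperone CAF-1 (-0.36), Ccne1, cyclin E1 (0.38), and Pola2, a subunit of DNA polymerase alpha (0.69). Chaf1b was the 1 gene of this list below 0 under TMM scaling, joined by Ccne1 (-0.03) under reference-gene scaling.

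Set against these genes, histone counts differed more than either list alone. In the control library there were 0.870 histone counts for each S-phase count, and in the Cpeb4 shRNA library 0.0299. This is a 29.1-fold difference, and it does not depend on the scaling, since both sums come from the same libraries. Histone genes thus went from 46131 to 15722 counts while the S-phase genes went from 53017 to 525885.

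None of the factors listed for making and degrading histone mRNA ends was at least 2-fold lower. Of 31 listed genes of histone mRNA processing and decay, each with a mean over 1 CPM, 10 were at least 2-fold higher (14.6% of all genes past the filter were), 0 were at least 2-fold lower (11.8% were) and 21 were within 2-fold, with a median of 0.77. Slbp, the stem-loop-binding protein, had 1600 and 6276 counts (1.15, and 0.74 under reference-gene scaling). Lsm11 (1.30) and Lsm10 (-0.58), the subunits particular to the U7 particle, stood apart, and Lsm10 was the lowest of the list. Zfp473, a zinc finger protein of the same machinery, had 69 and 349 counts (1.52), and Casp8ap2, or FLASH, which joins the U7 particle, had 834 and 4280 (1.54). The highest were the Sm protein genes Snrpg (2.21) and Snrpf (1.92) and the terminal uridylyltransferase gene Tut4 (1.79). Tut7 (-0.16) and Cstf2t (-0.02) followed Lsm10 at the lower end. The count of 10 was 16 under total-count and 5 under reference-gene scaling.

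Of 14 listed activators of histone genes, 4 were at least 2-fold higher, 0 were at least 2-fold lower and 10 lay within 2-fold, beside the same 14.6% and 11.8%. The count of 4 was 8 under total-count and 2 under reference-gene scaling, where Pou2f1 (0.91) and Creb1 (0.75) were within 2-fold. The lists share genes, so their counts are not separate results. Ccne1, Ccne2, Cdk2 and E2f1 are also in the S-phase list, Npat and Casp8ap2 also in the processing list, and Slbp in both of those lists. Npat, the coactivator of histone loci driven by cyclin E and Cdk2, had 2398 and 7090 counts (0.74). Pou2f1, the gene of Oct1, had 1992 and 8788 (1.32), and Ccne2 (1.57), Casp8ap2 (1.54) and Creb1 (1.16) were the others past 2-fold. The NF-Y subunit genes Nfya (0.93), Nfyb (0.95) and Nfyc (0.48) and Hinfp (0.62), which activates H4 genes, were within 2-fold, as were E2f1 (0.96), Cdk2 (0.97), Tbp (0.51), Ccne1 (0.38) and Yy1 (0.32, and -0.09 under reference-gene scaling).

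Of the 11 listed histone variants that are made outside replication, 5 were higher and 0 lower by the 2-fold rule under TMM scaling. Over all genes with no filter 16.9% were higher and 15.4% lower. The filter was passed by 9 variants, with 4 higher and 0 lower, beside 14.6% and 11.8%. Under reference-gene scaling 1 of the 11, H1f0 (-1.32), was lower. H2ax, whose mRNA can end either at a stem-loop or with a poly(A) tail, had 1322 and 18218 counts (2.96). The centromeric H3 variant gene Cenpa had 1246 and 12397 (2.49), H2az2 had 353 and 3356 (2.43) and H2az1 had 7664 and 37140 (1.46). H3f3a (0.22), H3f3b (0.44) and Macroh2a1 (0.66) were within 2-fold, and H3f3a turns to -0.19 and H3f3b to 0.03 under reference-gene scaling. H1f0, a linker histone of non-dividing cells, had 18884 and 17749 counts (-0.91), and H2aj was at -0.34. Macroh2a2 was at -0.30 and H1f10 at 2.30, the latter with 14 and 122 counts, and both had a mean under 1 CPM. Of 5 histone genes in the table that lie outside the naming rule, H2aw was at least 2-fold lower (15.4% of all genes were), with 2171 and 1139 counts (-1.75). H1f8 (-0.65, and -1.06 under reference-gene scaling), H3f3c (0.32), H2bu2 (0.18) and H4f16 (0.18) were within 2-fold.

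**Figure D5:**
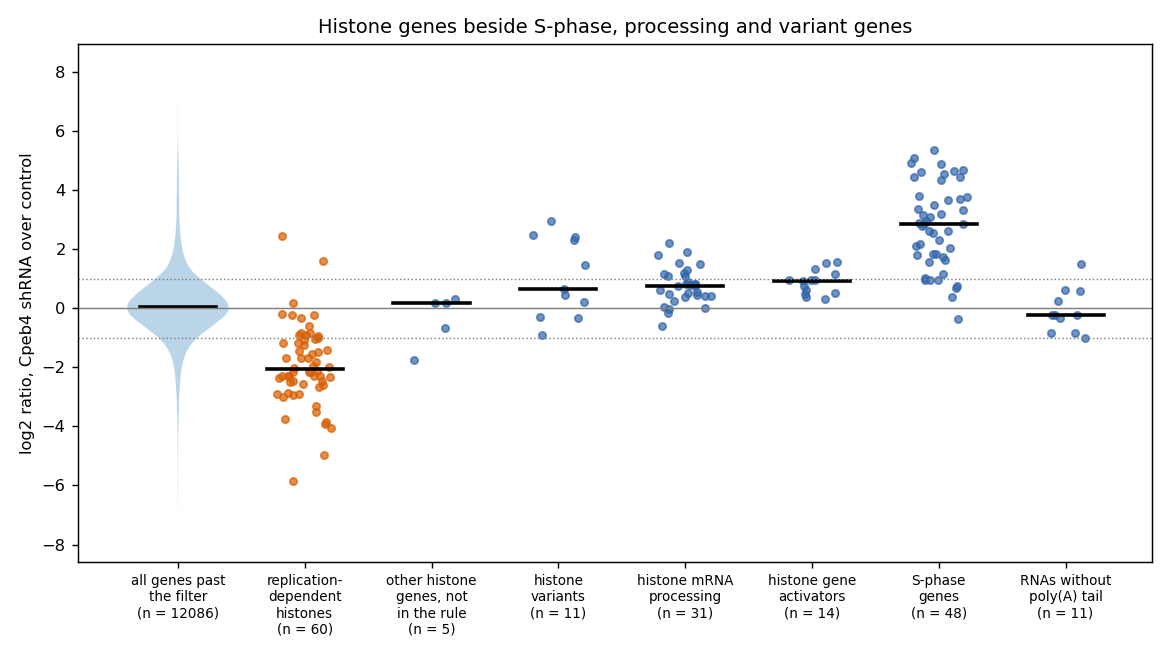
Log2 ratio (Cpeb4 shRNA over control, y axis) for all genes past the filter (shaded outline), the 60 replication-dependent histone genes (orange points) and the genes of 6 comparison lists (blue points), with medians as black bars and 2-fold as dotted lines. The histone median is -2.06 and the S-phase median 2.85, and the processing and activator genes lie mostly between 0 and 2.

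Cpeb4, the targeted gene and an RNA-binding protein that acts on mRNA poly(A) tails, had 25270 counts in the control and 13491 in the Cpeb4 shRNA library, or 345 and 104 CPM, a log2 ratio of -1.73. All 15 listed macrophage and osteoclast markers were in the table, 7 of them at least 2-fold lower, 1 higher and 7 within 2-fold. Over all genes with no filter 15.4% were lower and 16.9% higher. The filter was passed by 13 markers, with 6 lower, 0 higher and 7 within 2-fold, beside 11.8% lower and 14.6% higher. All 15 markers summed to 4.53% of counts in the control and 1.41% in the Cpeb4 shRNA library. The osteoclast genes Calcr (-3.49), Ctsk (-2.54), Acp5 (-2.25), Dcstamp (-1.87) and Atp6v0d2 (-1.49) were lower, as were Fcgr1 (-3.03) and Cd68 (-1.04, and -0.81 under total-count scaling). Nfatc1, the transcription factor of osteoclast formation, was at -0.05 (0.18 under total-count scaling). Csf1r (-0.61), Itgam (-0.44), Spi1 (-0.38), Ptprc (-0.13), Cd14 (0.35) and Lyz2 (0.998) were within 2-fold, the last just under the line. Adgre1, the gene of the macrophage antigen F4/80, was low in both libraries and higher in the second, with 12 and 101 counts (2.25, interval 1.38 to 3.25). Of 17 markers of other cell types 7 were in the table, none with a mean of 1 CPM, and they summed to 1.11 and 1.45 CPM. The 5 osteoclast genes named as lower and the histone genes thus differed in the same direction. Of the 15 markers 12 were below 0 under TMM scaling, Nfatc1 only just, and Cd14, Lyz2 and Adgre1 were above it. The part of the stage of differentiation in the histone result was not tested.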

How the data were processed

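The deposited table holds whole-number read counts per gene for 2 libraries, raw and unnormalised as far as the values show. Reads were aligned with HISAT2 on mm10, per the submitters' processing notes. The sources used here do not give the HISAT2 version, the counting tool, the annotation, or how strand and reads with more than 1 alignment were treated. Only genes with at least 1 count in both libraries are in the table. Genes at 4 counts outnumbered those at 3 or 5 (585 against 444 and 286 in the control library), so the counts the authors deposited may be estimates, and the intervals are then approximate.

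Counts were scaled by TMM in edgeR 4.0.16 (R 4.3.3), with factors of 0.922 for the control and 1.08 for the Cpeb4 shRNA library. Ratios and exact intervals were computed in Python 3.11.15 with scipy 1.17.1, and tested on simulated data. A gene counted as higher or lower from 2-fold. With 1 library per group no p-value or standard error was computed. PCR reads are not independent molecules, which the intervals do not cover. Identifiers were matched to GENCODE M21 (18954 of 18987, and 60 of 60 members). Coding sequences were compared within a class, and those at least 97% identical counted as near-identical.

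The rule for named genes took every member, Cpeb4, all genes of lists with up to 15 members past the filter, the 3 highest and 3 lowest of longer lists, and Slbp, Npat, Casp8ap2, Lsm10, Lsm11 and Zfp473. Reference genes enter the scaling and are not printed. H1f10, Macroh2a2, H2bu2, H4f16, Adgre1, Fcgr1 and the overlapping Gm genes were named after their values were seen. The lists of variants and of processing also held older synonyms of their own genes, such as Zcchc11 for Tut4, which match no further row. The members and lists were chosen with earlier results of these data known. Alternatives were 4 other scalings (total counts, DESeq2 1.42.0 size factors, upper quartile, 20 reference genes), other filters, thresholds and pseudocounts, thinning of the deeper library, and sums without overlapping, near-identical or leading members.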

Additional observations from a re-analysis of the deposited data

How the results depend on the processing

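No paired analysis was possible because there was 1 library per group and no test. Values are log2 ratios unless called counts. Under total-count scaling the summed histone counts stood at -2.14, H1 at -1.93, H2A at -3.78, H2B at -1.49, H3 at -3.10, H4 at -2.60 and Cpeb4 at -1.49. The processing list then had 16 higher genes and a median of 1.01, and the S-phase median was 3.08. Upper-quartile scaling gave -2.41 for the sum and -1.76 for Cpeb4. Reference-gene scaling gave -2.78 for the sum, -2.57 for H1, -4.42 for H2A, -2.13 for H2B, -3.74 for H3, -3.24 for H4 and -2.13 for Cpeb4. The median of the members past the filter, -2.47 under TMM, was then -2.88, the processing list had 5 higher genes and a median of 0.37, the S-phase median was 2.44, and 998 genes were higher and 2606 lower.

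With no filter 47 members were lower and 2 higher, with a median of -2.06, among 3217 higher and 2930 lower genes. At a mean of at least 10 CPM these were 8 lower members, a median of -2.97, and 1025 and 907 genes. With at least 10 counts in both libraries 44 members were lower and 1 higher, with a median of -2.07. A 1.5-fold threshold gave 18 higher processing genes and 3191 and 2674 genes in all, and a 4-fold threshold 1, 582 and 426. Fewer genes are tested under a stricter filter, and the cause of the other shifts was not tested.

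Without members that overlap another gene the sum was -2.03 and H3 -2.62, and H2A gives no value because all 18 overlap. Without near-identical members 9 were lower, with a median of -2.86, a sum of -1.99, H2A at -3.21, H2B at -1.02 and H4 at -3.004, and H3 gives no value. Without the most counted member the sum was -2.45, H2A -2.77, H2B -1.36 and H3 -2.62. A pseudocount of 0.5 CPM moved the members' median to -2.02 and one of 2 CPM to -1.28. Chosen after seeing the data, the sum with Gm20632, Gm20633 and Gm20634 was -2.33, without H2ac18 and H3c14 -2.09, and without H2bc21 -2.65. No sum or class changed sign under any of these, and of the members H1f5 and H2ac21 did. Depth limits the 24 members under 50 counts.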
